A study of Drosophila melanogaster with 12 samples.

Results

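Brains of 3rd instar Drosophila melanogaster larvae that expressed a short hairpin RNA against Atx2 from the elav driver (shRNA brains) were compared with control larval brains, across every gene with enough counts to be tested. The count tables hold 17737 gene identifiers. Of these, 15041 had a count in at least 1 brain library, and 10438 passed the filter on low counts and form the set described here. The series sequenced poly(A) RNA in 12 samples, of which these 6 brain samples, 3 in each group, are the subject, while the other 6 are S2 cells. shRNA brains carry the label elav gal4>Atx2 shRNA. For control brains the labels give the same tissue and stage, with the treatment entered as none, and neither their driver nor their genetic background is stated, so lower Atx2, the presence of driver and hairpin, and background cannot be told apart. Samples are lysates of whole larval brain, raised on cornmeal food, per the labels' protocols. How many brains went into a library, and whether replicates are separate animals, is not stated. The spread behind each p-value is therefore that among these libraries and may be technical. Where the text says every, each or any shRNA or control brain, a library of that group is meant, not an individual animal.

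Atx2 encodes Ataxin-2, which binds RNA and poly(A)-binding protein in the cytoplasm and acts in translational control and in the assembly of ribonucleoprotein granules. In fly neurons it is known for promoting translation of the clock gene per and for a part in long-term habituation. The larval brain holds neuroblasts, the stem cells that divide asymmetrically through intermediate progenitors to make neurons and glia in an order set by temporal factors, and beside them the mature neurons of the larval circuits and several types of glia. In the optic lobes, neuroepithelium is converted into neuroblasts and lamina precursors during this stage. The elav driver is active in neurons, and lines of it are known for weaker activity in some progenitors and embryonic glia. Bulk RNA holds all of these cells, so fewer cells of a type and less RNA per cell cannot be told apart.

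Total counts were 26442727, 27268724 and 28086056 in shRNA libraries 1, 2 and 3, against 29754856, 31579528 and 29971106 in control libraries 1, 2 and 3. Levels are given as CPM, counts over library sizes scaled by the trimmed mean of M-values. The labelled tissue could be checked against defining markers: the neuronal RNA-binding protein gene elav was at 330.0 to 344 CPM in shRNA brains and 482 to 600.4 CPM in control brains, and the glial transcription factor gene repo was at 104 to 133 and 81.5 to 90.2 CPM in the same order. Some libraries also held transcripts of neighbouring tissues. The 9 gut digestive enzyme markers summed to 2318 CPM in shRNA library 1 and to 4.13 CPM or less in the other 5. The 8 salivary gland markers, mostly glue proteins, summed to 1926 CPM in control library 3, to 68.4 CPM in shRNA library 1 and to 12.1 CPM or less elsewhere. The 7 muscle markers summed to 817, 1621 and 786 CPM in shRNA brains, against 646.5, 616 and 815 CPM in control brains. Of this, Tm1, a tropomyosin also made outside muscle, held 447 to 582 CPM in each of the 6 libraries. The myosin heavy chain gene Mhc alone was at 70.4, 306 and 37.7 CPM in shRNA brains, against 6.84, 6.85 and 63.7 CPM in control brains. It was highest in shRNA library 2 and lowest in control libraries 1 and 2. Fat body markers summed to 3213, 1403 and 94.8 CPM in shRNA brains, against 505, 27.4 and 303 CPM in control brains, and hemocyte markers to 281, 448 and 368 CPM in shRNA brains, against 207.5, 121 and 181 CPM in control brains. No marker of muscle, fat body or hemocytes was at 0 in any library. Because of the gut and salivary gland transcripts, the main counts of calls are also given without shRNA library 1 and control library 3 together.

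**Figure D1:**
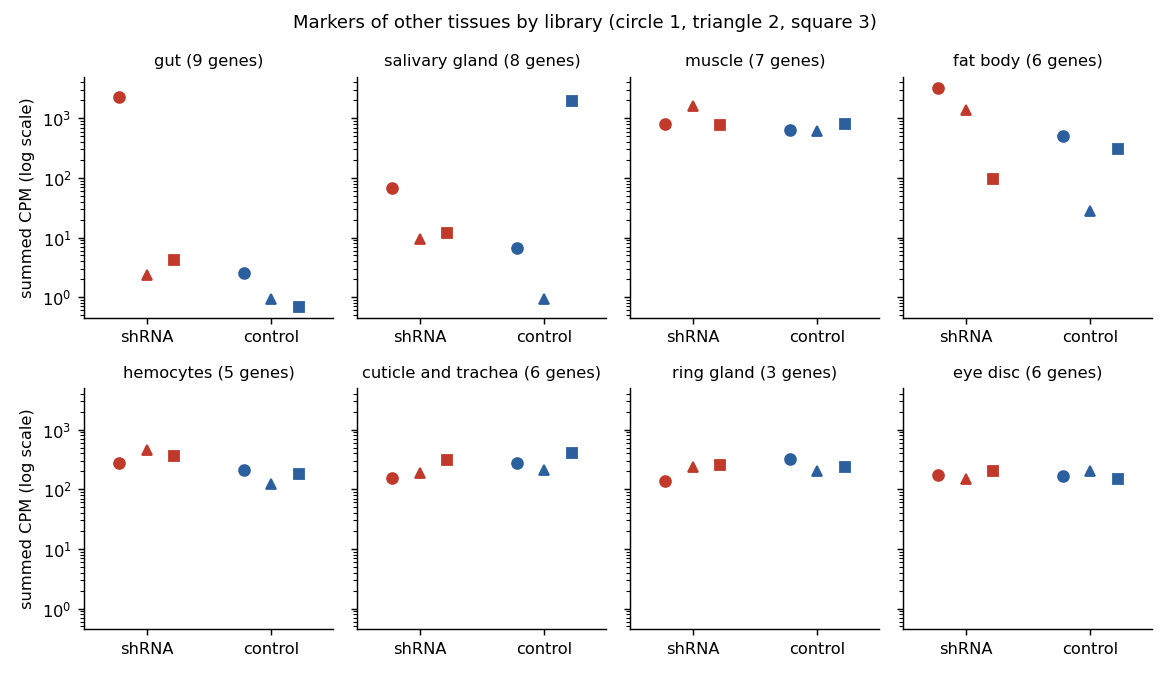
Summed CPM (log scale) of marker genes of 8 other tissues in each brain library, with shRNA libraries left of control libraries and a circle, triangle and square for libraries 1, 2 and 3. Gut markers reach 2318 CPM in shRNA library 1 and salivary gland markers 1926 CPM in control library 3, while eye disc markers lie between 151 and 206 CPM in all 6 libraries.

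Atx2 itself (FBgn0041188, chromosome 3R, 15408423 to 15417277 on the plus strand of BDGP6.54) was at 92.4, 97.8 and 104.1 CPM in shRNA brains, against 187, 195 and 197 CPM in control brains. The groups were far apart and tight, with no shRNA library above 104.1 CPM and no control library below 187 CPM. The means were 98.1 ± 5.86 CPM in shRNA brains and 193 ± 5.08 CPM in control brains (SD, n = 3 each), and the log2 fold change was -0.97 ± 0.08 (SE, adjusted p = 0.00271 by the quasi-likelihood F test of edgeR with Benjamini-Hochberg adjustment over all genes tested, used throughout). It kept a call in each of the 6 fits that left out 1 library. Transcript thus remained in every shRNA brain, as counted over whole brains that include cells in which the driver may not be active.

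Across all genes tested, 2397 were called at an adjusted p under 0.05, which is 23.0% of 10438. They were split evenly, with 1199 higher (11.5%) and 1198 lower (11.5%) in shRNA brains, and the median log2 fold change of all genes was 0.01, with quartiles at -0.25 and 0.36. Size was not split evenly. Of the 703 calls of at least 2-fold (6.74% of genes tested), 542 were higher and 161 lower, and of the calls of at least 4-fold 182 were higher and 36 lower. Genes called higher were at a median of 21.7 CPM in control brains, genes called lower at 119 CPM and all genes tested at 29.5 CPM. The control level also enters the fold change, so part of this difference follows from how the genes were picked. The median exon length was 2098 bases for higher calls, 3054 bases for lower calls and 2060 bases for all genes tested. In 4646 genes (44.5%) the 3 shRNA libraries did not overlap the 3 control libraries. This held for 1195 of the 1199 higher calls and for all 1198 lower calls, so a lack of overlap adds little to a call.

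The number of calls depended on which libraries were in the fit. It was 1396, 833 and 2364 without shRNA library 1, 2 or 3 and 995, 494 and 1548 without control library 1, 2 or 3. Without shRNA library 1 and control library 3 together it was 1231, of which 1095 were shared with the 2397 and had the same direction. In all, 445 genes were called in each of the 6 leave-out fits, those without 1 library, 247 higher and 198 lower. The libraries were not equally far from the other group. Among the 1195 higher calls with groups that did not overlap, shRNA library 3 was the shRNA library nearest to controls in 821, and control library 3 was the control library nearest to shRNA brains in 608.

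**Figure D2:**
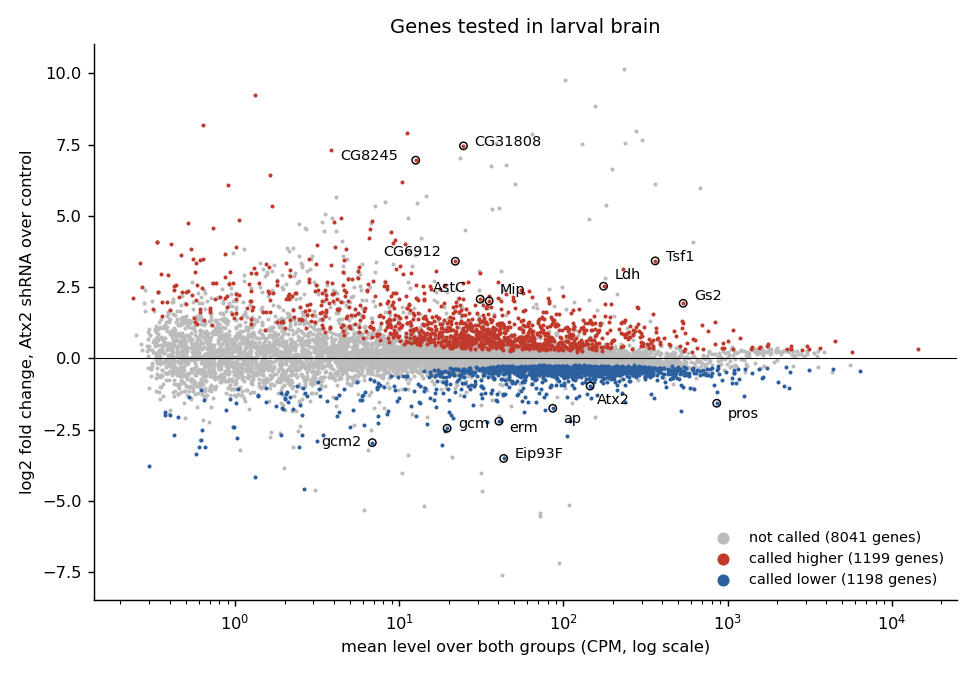
Log2 fold change of shRNA over control brains against mean level in CPM (log scale) for the 10438 genes tested, with 1199 genes called higher, 1198 called lower and the rest grey. Calls of at least 4-fold lie mostly above 0, with 182 higher and 36 lower.

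Genes for enzymes of foreign compound metabolism and for uncharacterised proteins led the increases that were called in all 6 leave-out fits. CG8245 (FBgn0033031, chromosome 2R, 5668383 to 5669986) was at 25.6, 26.3 and 23.01 CPM in shRNA brains, against 0.205, 0.255 and 0.132 CPM in control brains. CG31808 (FBgn0062978, chromosome 2L, 16704286 to 16716195) was at 59.7, 55.8 and 31.3 CPM in shRNA brains, against 0.171, 0.223 and 0.430 CPM in control brains. Both were close to absent from control brains and clearly present in every shRNA brain, with log2 fold changes of 6.95 ± 0.25 (adjusted p = 0.000374) and 7.45 ± 0.43 (adjusted p = 0.00122). CG6912 was at 49.4, 35.3 and 35.6 CPM in shRNA brains, against 3.83, 4.21 and 3.30 CPM in control brains (3.41 ± 0.19, adjusted p = 0.00122). CR45600, annotated as an antisense RNA gene, lies on the same strand as CG6912 and shares a few bases at its edge with it. CR45600 rose as well (3.22 ± 0.21), and reads in the shared bases cannot be assigned to either gene. The cytochrome P450 genes Cyp6a20 (28.3, 22.9 and 9.69 CPM in shRNA brains, against 0.513, 1.59 and 1.69 CPM in control brains), Cyp9h1 (2.77 ± 0.40) and Cyp28d1 (2.67 ± 0.32) and the UDP-glycosyltransferase gene Ugt35C1 (3.96 ± 0.62) were also among the 12 largest increases of this kind.

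Tsf1, which encodes the secreted iron carrier transferrin and is made in large amounts by fat body, was at 1004, 698 and 284 CPM in shRNA brains, against 48.2, 56.8 and 80.8 CPM in control brains. Every shRNA library was above every control library, but shRNA library 3 was far below the other 2 shRNA libraries. Its log2 fold change was 3.42 ± 0.48 (adjusted p = 0.00759). The summed fat body markers ran 3213, 1403 and 94.8 CPM over the same 3 shRNA libraries, and their part in this result was not tested. Obp44a, an odorant-binding protein gene, had 4698, 6526 and 5194 CPM in shRNA brains, against 3524, 3662 and 3549 CPM in control brains, a rise of 0.61 ± 0.12 on the log2 scale (adjusted p = 0.0184). Obp44a lost its call without control library 1, 2 or 3 (adjusted p = 0.0531 to 0.0697).

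Transcription factors of development led the decreases. Eip93F (FBgn0264490, chromosome 3R, 21949114 to 22014539), the steroid-induced factor of late larval and pupal life, was at 5.98, 6.65 and 8.25 CPM in shRNA brains, against 81.9, 91.4 and 65.3 CPM in control brains. The ranges did not come near each other (-3.51 ± 0.18, adjusted p = 0.00122). Lower as well were the homeobox genes CG11294 (4.41, 4.48 and 3.04 CPM in shRNA brains, against 34.9, 32.8 and 29.5 CPM in control brains) and CG11085 (1.15, 0.881 and 0.699 CPM in shRNA brains, against 4.41, 7.20 and 6.15 CPM in control brains), and dmrt99B, of the doublesex-related family, at 16.3, 13.8 and 6.26 CPM in shRNA brains, against 47.3, 51.6 and 70.7 CPM in control brains. In all 3 the shRNA libraries lay below every control library. Their log2 fold changes were -3.03 ± 0.18, -2.70 ± 0.33 and -2.22 ± 0.36. U12 snRNA of the minor spliceosome, a short RNA that poly(A) selection captures poorly, was at 0.997, 1.95 and 1.78 CPM in shRNA brains, against 9.74, 7.52 and 8.10 CPM in control brains (-2.42 ± 0.32, adjusted p = 0.00685). CG15919, at 0.269, 0.110 and 0.245 CPM in shRNA brains, against 6.80, 6.25 and 2.15 CPM in control brains, had the most negative fold change of these genes (-4.58 ± 0.61). The identifiers FBgn0028993 and FBgn0284250, for which no symbol was found, were also among the largest decreases. FBgn0028993 was at 31.2, 31.9 and 20.8 CPM in shRNA brains, against 169.7, 202.7 and 178.3 CPM in control brains (-2.71 ± 0.18, adjusted p = 0.00174). FBgn0284250 had a log2 fold change of -2.20 ± 0.28 (adjusted p = 0.00670). By difference in CPM rather than by fold, the decreases were led by the actin gene Act5C and by fax, a gene of axon growth named failed axon connections. fax was at 1217, 1507 and 1870 CPM in shRNA brains, against 3292, 3317 and 2894 CPM in control brains. Its groups were well separated (-1.05 ± 0.16, adjusted p = 0.00916). fax lost its call without control library 2 (adjusted p = 0.0524). The histone H3.3 gene His3.3B fell too, with 1382, 1361 and 1604 CPM in shRNA brains, against 2736, 2614 and 2392 CPM in control brains (-0.83 ± 0.09, adjusted p = 0.00551).

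**Figure D3:**
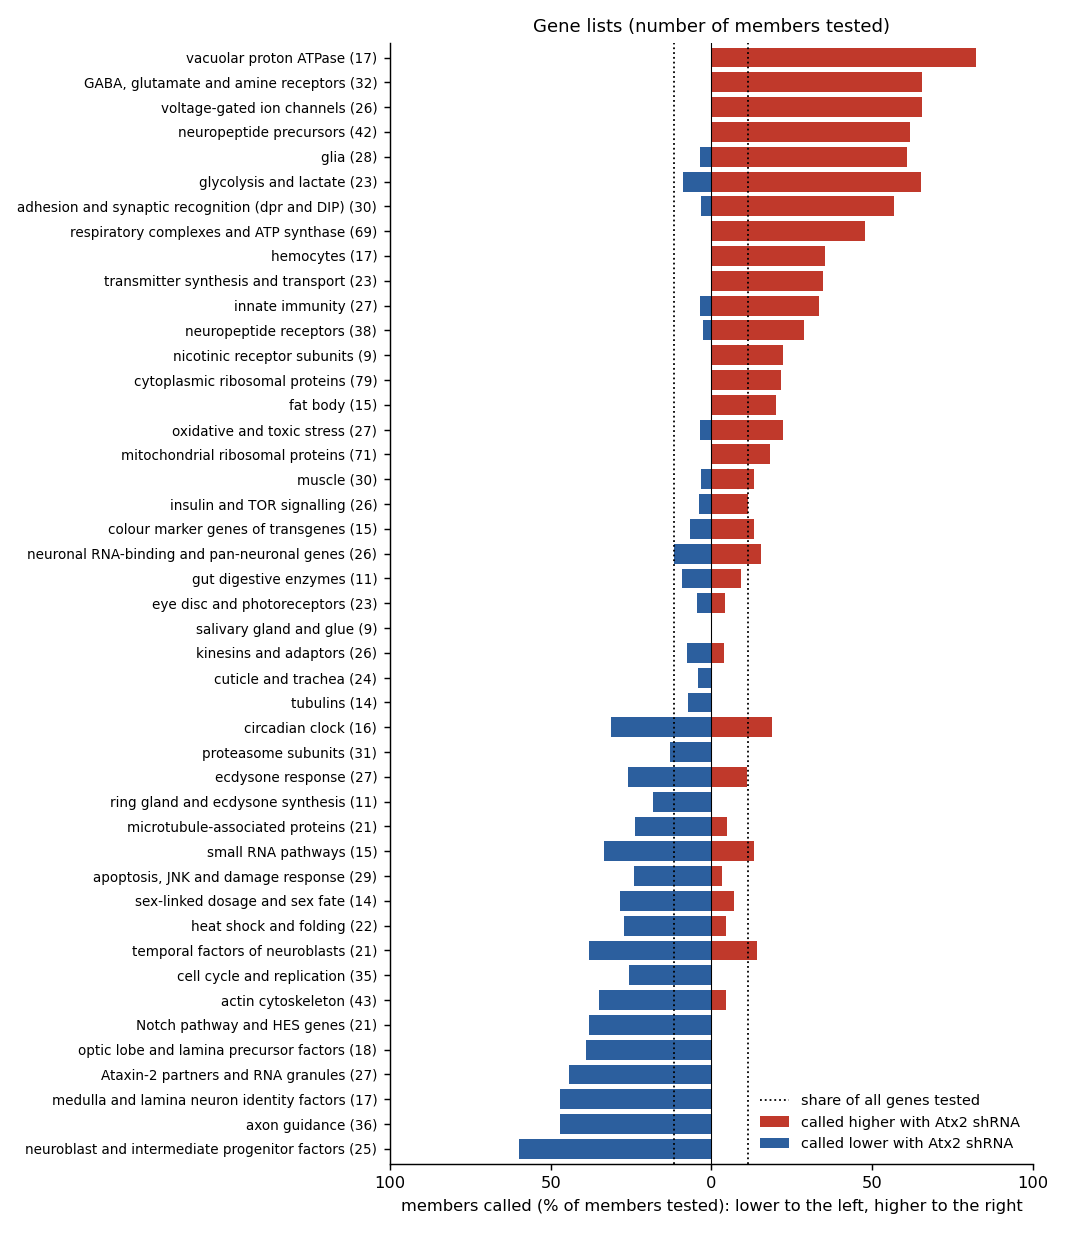
Share of the tested members of each of 45 gene lists called higher (right) or lower (left) in shRNA brains, with the number of members tested in brackets and dotted lines at the 11.5% of all genes tested in each direction. Lists of proton pump, receptor, channel, neuropeptide and glial genes lie at the top, and lists of progenitor, axon guidance and optic lobe neuron genes at the bottom.

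Most genes listed for neuroblasts and intermediate progenitors were lower in shRNA brains. Of 25 members of this list tested, 15 (60.0%, against 11.5% of all genes tested) were lower, 0 higher and 10 not called, and the median log2 fold change was -0.98, against 0.01 for all genes. The transcription factor gene erm (FBgn0031375, chromosome 2L, 1950239 to 1970362), which keeps intermediate progenitors from reverting to neuroblasts, was at 16.00, 15.8 and 11.4 CPM in shRNA brains, against 59.3, 60.8 and 79.3 CPM in control brains. ham, a factor that changes progenitor and neuron identity over time, was at 31.6, 40.7 and 29.9 CPM in shRNA brains, against 114.9, 106 and 138 CPM in control brains. No shRNA library reached the lowest control library in either gene, with log2 fold changes of -2.21 ± 0.18 (adjusted p = 0.00305) and -1.81 ± 0.16 (adjusted p = 0.00318).

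The scaffold protein gene mira, whose product carries fate determinants into the daughter cell of a neuroblast, was at 73.5, 87.4 and 54.5 CPM in shRNA brains, against 183, 171 and 179 CPM in control brains (-1.31 ± 0.17, adjusted p = 0.00670). pros (FBgn0004595, chromosome 3R, 11328480 to 11407627), the determinant that Miranda carries and that ends division, was at 436, 306 and 551 CPM in shRNA brains, against 1095, 1328 and 1434 CPM in control brains (-1.58 ± 0.22, adjusted p = 0.00759). Both were lower in all 3 shRNA libraries, pros least in library 3 and mira most in that same library. ase, a proneural factor of neuroblasts, was at 28.8, 44.6 and 25.6 CPM in shRNA brains, against 76.7, 80.3 and 95.03 CPM in control brains (-1.35 ± 0.22, adjusted p = 0.0106), and tll, an orphan nuclear receptor of the protocerebrum and optic lobe, was at 10.8, 9.22 and 5.001 CPM in shRNA brains, against 23.6, 30.3 and 44.3 CPM in control brains (-1.97 ± 0.35, adjusted p = 0.0128). With 1 library left out, the call was lost (adjusted p in brackets) for ase without control library 2 (0.0504) and tll without control library 2 (0.0572). The members without a call include dpn, the pan-neuroblast repressor, at 7.75, 9.69 and 13.5 CPM in shRNA brains, against 12.7, 13.7 and 14.4 CPM in control brains. Its groups overlapped, as shRNA library 3 was above control library 1.

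The count of lower progenitor genes varied little with the libraries used. It was 15, 15 and 17 without shRNA library 1, 2 or 3 and 14, 13 and 15 without control library 1, 2 or 3, and 14 without shRNA library 1 and control library 3 together. Of all 25 log2 fold changes, called or not, 24 were below 0. The 1 above 0 was of a member without a call.

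**Figure D4:**
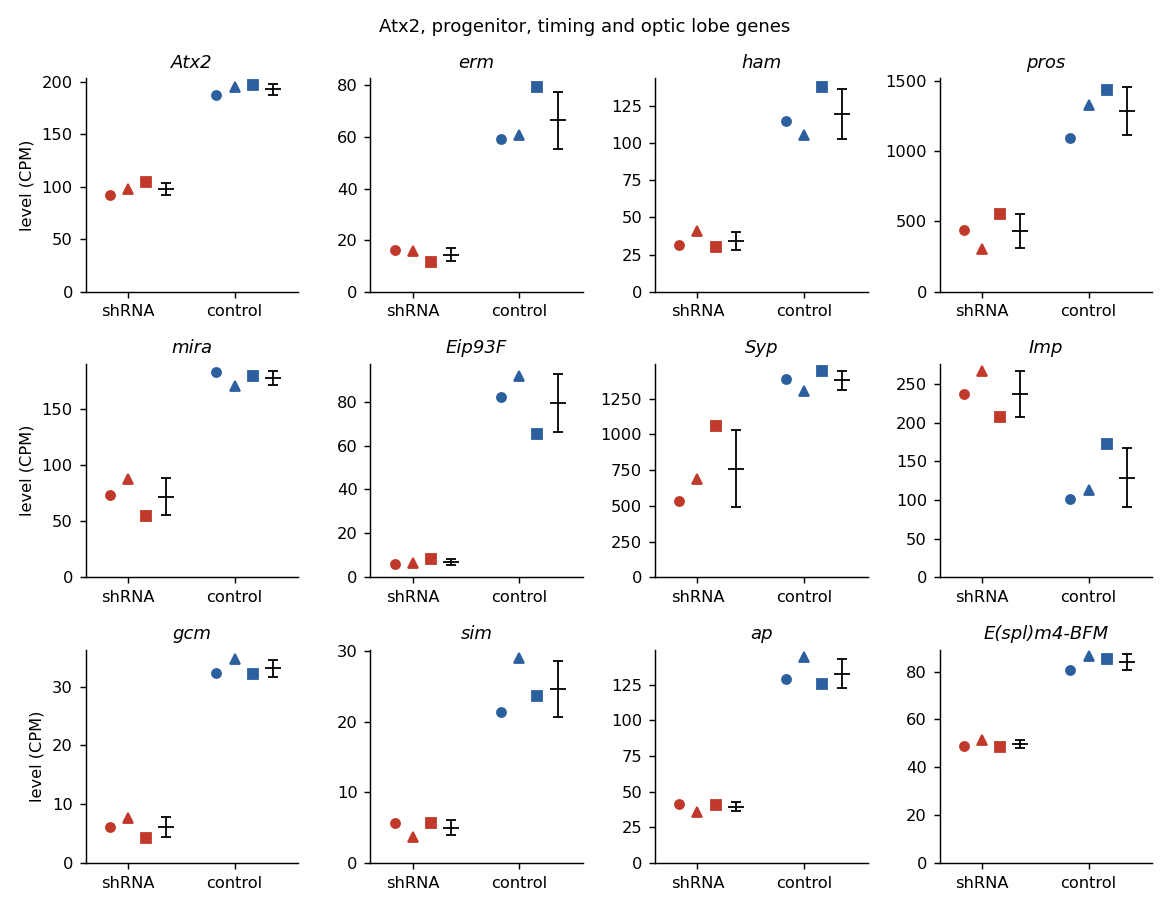
Level in CPM of Atx2 and 11 progenitor, timing and optic lobe genes in each library, shRNA left of control, with a circle, triangle and square for libraries 1, 2 and 3 and bars for mean ± SD. In all 12 panels the 3 shRNA libraries do not overlap the 3 control libraries, and Imp is the gene that is higher with shRNA.

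Factors that order the birth of neurons were more often called lower than higher. Of 21 temporal factors tested, 8 (38.1%) were lower, 3 (14.3%) higher and 10 not called, with a median of -0.12. The higher share was near the 11.5% of all genes tested, and the lower share was above the same 11.5%. Eip93F, above, is a late factor of this series. The BTB zinc finger gene mamo, a factor of late-born neuron identity, was at 57.4, 63.6 and 56.1 CPM in shRNA brains, against 128, 133 and 192 CPM in control brains (-1.36 ± 0.17, adjusted p = 0.00631). The forkhead genes slp1 and slp2, which act together in the temporal series of medulla neuroblasts, were at 18.8, 19.6 and 19.8 CPM in shRNA brains, against 36.4, 40.2 and 36.2 CPM in control brains for slp1, and at 21.9, 26.8 and 26.6 CPM in shRNA brains, against 51.5, 62.6 and 67.3 CPM in control brains for slp2. Every shRNA library was below every control library in both genes, with log2 fold changes of -0.96 and -1.27 (adjusted p = 0.00347 and 0.00503). bab1 was lower as well, at 13.2, 10.4 and 22.2 CPM in shRNA brains, against 35.1, 34.7 and 27.5 CPM in control brains (-1.09 ± 0.28, adjusted p = 0.0368), with control library 3 and shRNA library 3 near each other.

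The early factor Kr was higher, at 19.8, 18.5 and 16.3 CPM in shRNA brains, against 8.78, 10.4 and 9.85 CPM in control brains (0.91 ± 0.14, adjusted p = 0.00909). A further 3 genes were chosen for mention after their values were seen. The BTB zinc finger gene ab rose by 0.77 ± 0.08 (adjusted p = 0.00544) and, like Kr, held in all 6 leave-out fits. Imp and Syp encode RNA-binding proteins that oppose each other in neuroblasts, Imp early and Syp late. Imp was at 237, 267 and 208 CPM in shRNA brains, against 102, 113 and 173 CPM in control brains. Syp was at 533, 690.4 and 1057 CPM in shRNA brains, against 1385, 1306 and 1440 CPM in control brains. The groups were apart in both, Imp higher (0.88 ± 0.21, adjusted p = 0.0301) and Syp lower (-0.86 ± 0.24, adjusted p = 0.0426). In leave-out fits the adjusted p, in brackets, was above the threshold for Imp in each such fit except without shRNA library 3 or control library 3 (0.0679 to 0.117), Syp in each such fit except without shRNA library 3 (0.0676 to 0.132), and bab1 in each such fit except without shRNA library 3 (0.0625 to 0.129). chinmo, another early factor, had no call at 312, 244 and 233 CPM in shRNA brains, against 146, 189 and 222 CPM in control brains (0.50 ± 0.18, adjusted p = 0.0873). The lower count for the list was 6, 5 and 9 without shRNA library 1, 2 or 3 and 6, 4 and 6 without control library 1, 2 or 3, against 8 with all 6, and it was 6 without shRNA library 1 and control library 3.

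Among targets of the steroid hormone ecdysone, 7 of 27 ecdysone response genes (25.9%) were lower, 3 higher and 17 not called (median -0.21). ImpE1, ImpE2 and ImpE3 are ecdysone-inducible genes of the imaginal discs. ImpE2 was at 94.4, 364 and 219 CPM in shRNA brains, against 1029, 906 and 516 CPM in control brains. ImpE3 was at 6.75, 18.4 and 15.8 CPM in shRNA brains, against 52.5, 44.4 and 30.6 CPM in control brains. ImpE1 was at 113, 183 and 121 CPM in shRNA brains, against 408, 287 and 261 CPM in control brains. All 3 were lower in every shRNA brain than in any control brain, and shRNA library 1 was the lowest in each. Their log2 fold changes were -1.86 ± 0.50, -1.64 ± 0.38 and -1.20 ± 0.24 (adjusted p = 0.0399, 0.0275 and 0.0183). The nuclear receptor gene Eip75B fell too (-0.76 ± 0.15, adjusted p = 0.0184), and the juvenile hormone receptor gene gce rose (0.79 ± 0.11, adjusted p = 0.00776). The other higher members, named after their values were seen, were ftz-f1 (0.75) and MsrA (0.40). EcR itself, the ecdysone receptor, had no call (0.08). For ecdysone response genes the lower count was 6, 5 and 7 without shRNA library 1, 2 or 3 and 2, 1 and 7 without control library 1, 2 or 3, and 6 without shRNA library 1 and control library 3. Calls that a leave-out fit lost (adjusted p in brackets) were those of ImpE1 without control library 1 or 2 (0.0554 and 0.0651), ImpE2 in each such fit except without shRNA library 1 or shRNA library 2 (0.0507 to 0.124), ImpE3 without shRNA library 2 or control library 1 or 2 (0.0544 to 0.0961), Eip75B without shRNA library 2 or control library 1 or 2 (0.0571 to 0.0817), ftz-f1 in each such fit except without control library 3 (0.0616 to 0.157), and MsrA without control library 2 (0.0628). Salivary gland is a strong ecdysone target, and its markers were high in control library 3, which was the lowest control library for ImpE1, ImpE2 and ImpE3; their part in these results was not tested.

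Optic lobe genes were lower where they changed. Of 18 optic lobe and lamina precursor factors 7 (38.9%) were lower, 0 higher and 11 not called, with a median of -0.27. gcm (FBgn0014179, chromosome 2L, 9579498 to 9581745) and gcm2, neighbouring transcription factor genes that specify glia and lamina neurons, were at 6.10, 7.71 and 4.30 CPM in shRNA brains, against 32.4, 34.8 and 32.1 CPM in control brains for gcm, and at 1.53, 2.02 and 1.12 CPM in shRNA brains, against 11.2, 12.7 and 12.5 CPM in control brains for gcm2. sim, a factor of lamina precursors and midline cells, was at 5.64, 3.75 and 5.67 CPM in shRNA brains, against 21.3, 28.99 and 23.6 CPM in control brains. In all 3 genes the highest shRNA library was below the lowest control library by a wide margin. The log2 fold changes were -2.46 ± 0.22, -2.96 ± 0.27 and -2.30 ± 0.22 (adjusted p = 0.00339, 0.00347 and 0.00386). The T-box gene bi of the lamina and the optic lobe margins fell less, at 80.5, 91.9 and 84.5 CPM in shRNA brains, against 142, 133 and 152 CPM in control brains (-0.73 ± 0.09, adjusted p = 0.00608). dac and eya, eye and lamina factors, had log2 fold changes of 0.00 and -0.12 with no call. Members called lower numbered 7, 4 and 8 without shRNA library 1, 2 or 3 and 4, 4 and 6 without control library 1, 2 or 3, and 6 without shRNA library 1 and control library 3.

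Among factors of medulla and lamina neurons, 8 of 17 (47.1%) were lower, 0 higher and 9 not called (median -0.39). ap (FBgn0267978, chromosome 2R, 5706202 to 5727525), a LIM homeodomain factor made in many medulla neurons, was at 41.6, 35.6 and 40.95 CPM in shRNA brains, against 129, 144 and 125 CPM in control brains. The ETS gene Ets65A was at 38.1, 32.6 and 33.3 CPM in shRNA brains, against 72.6, 72.8 and 82.6 CPM in control brains, and bsh, a homeodomain factor of lamina and medulla neurons, at 6.90, 7.49 and 6.58 CPM in shRNA brains, against 12.8, 17.7 and 13.9 CPM in control brains. The groups did not overlap in any of these, and the log2 fold changes were -1.75 ± 0.10 (adjusted p = 0.00122), -1.13 ± 0.09 (adjusted p = 0.00310) and -1.08 ± 0.18 (adjusted p = 0.0112). The forkhead gene fd59A (-0.96 ± 0.13) and the homeobox gene Drgx (-0.93 ± 0.14) fell as well. ap and Ets65A were called in all 6 leave-out fits. bsh lost its call without control library 2 (adjusted p = 0.0538). In leave-out fits the lower count was 8, 7 and 10 without shRNA library 1, 2 or 3 and 7, 5 and 8 without control library 1, 2 or 3, and 8 without shRNA library 1 and control library 3. Members of the same list without a call were Dll (0.14), run (-0.07) and kn (0.03).

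The Notch pathway list holds the receptor, the ligand gene Ser, cofactors and the E(spl) complex of target genes. The symbol of the ligand gene Dl was not matched to a gene, so Dl is not among the members counted. Of 21 members 8 (38.1%) were lower, 0 higher and 13 not called, with a median of -0.70. E(spl)m4-BFM, a Bearded family member of the complex, was at 48.8, 51.5 and 48.4 CPM in shRNA brains, against 80.5, 86.6 and 85.1 CPM in control brains (-0.76 ± 0.06, adjusted p = 0.00318). The repressor gene E(spl)mgamma-HLH, made in neuroblasts, was at 33.4, 46.6 and 31.7 CPM in shRNA brains, against 70.9, 88.7 and 68.04 CPM in control brains (-1.03 ± 0.18, adjusted p = 0.0124). E(spl)m8-HLH was at 22.02, 35.2 and 35.7 CPM in shRNA brains, against 61.5, 71.4 and 54.98 CPM in control brains (-1.02 ± 0.20, adjusted p = 0.0178). Every shRNA library was below every control library in these 3 targets. The receptor gene N (-0.22) and the ligand gene Ser (0.10) had no call, while neur, whose ubiquitin ligase activates ligands, fell (-0.77 ± 0.15, adjusted p = 0.0159). Here the lower count was 7, 4 and 13 without shRNA library 1, 2 or 3 and 3, 1 and 6 without control library 1, 2 or 3, and 5 without shRNA library 1 and control library 3. Among named genes, a call was lost (adjusted p in brackets) for E(spl)m8-HLH without control library 1 or 2 (0.0589 and 0.0791), E(spl)mgamma-HLH without control library 2 (0.0571), and neur without shRNA library 2 or control library 1 or 2 (0.0571 to 0.0629).

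Genes of cell division were lower where they changed. Of 35 members of the cell cycle and replication list 9 (25.7%) were lower, 0 higher and 26 not called, with a median of -0.28 and 32 log2 fold changes below 0. CycE, which drives entry into S phase, was at 50.7, 67.7 and 69.1 CPM in shRNA brains, against 122, 111 and 121 CPM in control brains (-0.92 ± 0.13, adjusted p = 0.00787). CycA, the cyclin of S phase and mitotic entry, was at 152, 211 and 213 CPM in shRNA brains, against 300.1, 284 and 306 CPM in control brains (-0.63 ± 0.14, adjusted p = 0.0234), and E2f2, a repressing E2F factor, at 38.97, 43.3 and 42.6 CPM in shRNA brains, against 61.4, 60.6 and 56.3 CPM in control brains (-0.51 ± 0.08, adjusted p = 0.00870). No shRNA library overlapped control libraries in these 3. String, the Cdc25 phosphatase gene stg (-0.38), and PCNA (0.02) had no call. The lower count depended on the libraries, with 4, 2 and 6 without shRNA library 1, 2 or 3 and 3, 2 and 3 without control library 1, 2 or 3 and 4 without shRNA library 1 and control library 3. CycE was called in all 6 leave-out fits. In leave-out fits no call was made (adjusted p in brackets) for E2f2 without control library 2 (0.0524), and CycA in each such fit except without shRNA library 1 or shRNA library 3 (0.0571 to 0.0853).

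Of 26 pan-neuronal genes 4 (15.4%) were higher, 3 (11.5%) lower and 19 not called, with a median of 0.30, so both shares were near the 11.5% of all genes. The higher count was 1, 0 and 2 without shRNA library 1, 2 or 3 and 1, 0 and 3 without control library 1, 2 or 3, and 2 without shRNA library 1 and control library 3. The neuronal RNA-binding protein genes elav (FBgn0260400, chromosome X, 509235 to 523226) and fne, which regulate splicing and polyadenylation in neurons, were at 330.0, 333 and 344 CPM in shRNA brains, against 482, 574 and 600.4 CPM in control brains for elav, and at 289, 283 and 326 CPM in shRNA brains, against 487, 587 and 526 CPM in control brains for fne. Both were lower in every shRNA brain, with log2 fold changes of -0.72 ± 0.10 (adjusted p = 0.00732) and -0.83 ± 0.10 (adjusted p = 0.00607). The vesicular monoamine transporter gene Vmat was higher, at 195, 171 and 163 CPM in shRNA brains, against 64.3, 85.2 and 108 CPM in control brains (1.04 ± 0.19, adjusted p = 0.0146), with control library 3 nearest to shRNA brains. The synaptotagmin gene Syt1 (374, 322 and 327 CPM in shRNA brains, against 217, 283 and 255 CPM in control brains) and the SNARE gene Snap25 (76.2, 79.1 and 77.2 CPM in shRNA brains, against 51.4, 62.7 and 61.2 CPM in control brains) were higher too, by 0.44 ± 0.12 and 0.41 ± 0.09. Rim, of the active zone (0.53), and the adhesion gene Fas2 (-0.33, named after its value was seen) were the other 2 called. Of the named calls, those lost in leave-out fits (adjusted p in brackets) were Vmat without shRNA library 2 or control library 2 (0.0516 and 0.0697), Syt1 in each such fit (0.0661 to 0.101), Snap25 in each such fit except without shRNA library 3 (0.0540 to 0.0818), Rim in each such fit (0.0670 to 0.122), and Fas2 in each such fit except without shRNA library 3 (0.0537 to 0.129). nSyb (0.28) and brp (0.19), of the vesicle and the active zone, had no call, and neither had ChAT (0.44) or VGlut (-0.10), of the acetylcholine and glutamate transmitter systems.

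Most voltage-gated channel genes were higher in shRNA brains. Of 26 voltage-gated ion channel genes 17 (65.4%, against 11.5% of all genes tested) were higher, 0 lower and 9 not called, with a median of 0.64, and all 26 log2 fold changes were above 0. The hyperpolarisation-activated channel gene Ih was at 247, 204 and 178 CPM in shRNA brains, against 64.6, 86.2 and 97.2 CPM in control brains. The T-type calcium channel gene Ca-alpha1T was at 122, 93.95 and 82.7 CPM in shRNA brains, against 32.5, 44.7 and 43.3 CPM in control brains. para, the sodium channel of action potentials, was at 133, 104.4 and 92.2 CPM in shRNA brains, against 25.02, 42.5 and 58.02 CPM in control brains. In each gene shRNA library 1 was the highest of all 6, and no control library reached the lowest shRNA library. The log2 fold changes were 1.34 ± 0.19 (adjusted p = 0.00753), 1.31 ± 0.18 (adjusted p = 0.00759) and 1.39 ± 0.30 (adjusted p = 0.0223). The calcium-activated potassium channel gene slo (1.71 ± 0.36), the delayed rectifier gene Shab (1.55 ± 0.26) and the sodium channel family gene NaCP60E (1.11 ± 0.23) were also called. Ih and Ca-alpha1T kept their calls in all 6 leave-out fits. With 1 library left out, the call was lost (adjusted p in brackets) for para without shRNA library 1 or 2 or control library 2 (0.0585 to 0.0914), slo without shRNA library 1 or 2 or control library 2 (0.0530 to 0.0866), Shab without control library 2 (0.0545), and NaCP60E without shRNA library 2 or control library 2 (0.0601 and 0.0753). For channels the higher count was 9, 7 and 16 without shRNA library 1, 2 or 3 and 10, 5 and 11 without control library 1, 2 or 3, and 11 without shRNA library 1 and control library 3.

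Receptors of transmitters went the same way. Of 32 GABA, glutamate and amine receptor genes 21 (65.6%) were higher, 0 lower and 11 not called (median 0.68). Rdl, the GABA-gated chloride channel subunit, was at 238, 189 and 199.6 CPM in shRNA brains, against 63.9, 91.3 and 103 CPM in control brains (1.28 ± 0.19, adjusted p = 0.00870). DopEcR, a receptor of dopamine and ecdysteroids, was at 146, 107 and 115.2 CPM in shRNA brains, against 44.98, 62.8 and 58.1 CPM in control brains (1.15 ± 0.17, adjusted p = 0.00846), and the octopamine receptor gene Octbeta2R at 12.4, 15.4 and 9.97 CPM in shRNA brains, against 4.44, 5.07 and 5.29 CPM in control brains (1.35 ± 0.21, adjusted p = 0.0103). All control libraries were below all shRNA libraries in the 3 genes. Of 9 nicotinic acetylcholine receptor subunits 2 (22.2%, against 11.5% of all genes tested) were higher, 0 lower and 7 not called. The higher ones were nAChRalpha5 (0.70) and nAChRbeta1, which was at 151, 128 and 98.7 CPM in shRNA brains, against 40.03, 61.4 and 63.9 CPM in control brains (1.20 ± 0.22, adjusted p = 0.0152). The metabotropic receptor genes GABA-B-R2 (0.04) and mGluR (0.00) had no call. The count of higher GABA, glutamate and amine receptors was 11, 9 and 19 without shRNA library 1, 2 or 3 and 10, 6 and 12 without control library 1, 2 or 3, and 9 without shRNA library 1 and control library 3. In leave-out fits the adjusted p, in brackets, was above the threshold for Octbeta2R without control library 2 (0.0522), nAChRbeta1 without shRNA library 2 or control library 2 (0.0547 and 0.0611), and nAChRalpha5 in each such fit except without shRNA library 3 (0.0673 to 0.0827).

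Neuropeptide genes had the highest median log2 fold change of the neuronal lists. Of 42 precursor genes tested 26 (61.9%) were higher, 0 lower and 16 not called, and the median was 1.12. AstC (FBgn0032336, chromosome 2L, 11076165 to 11081399), which encodes allatostatin C, was at 52.4, 53.4 and 45.1 CPM in shRNA brains, against 8.51, 12.2 and 15.1 CPM in control brains. Mip (FBgn0036713, chromosome 3L, 17344947 to 17349666), the myoinhibiting peptide precursor, was at 63.9, 64.1 and 41.6 CPM in shRNA brains, against 12.7, 14.4 and 15.00 CPM in control brains. Dsk, the cholecystokinin-like drosulfakinin, was at 48.6, 61.5 and 41.7 CPM in shRNA brains, against 14.3, 13.8 and 13.7 CPM in control brains. The groups were widely separated in all 3, with log2 fold changes of 2.08 ± 0.21, 2.01 ± 0.19 and 1.86 ± 0.15 (adjusted p = 0.00466, 0.00385 and 0.00305). CNMa and CCHa1 rose by 1.92 ± 0.30 and 1.86 ± 0.28, and like AstC, Mip and Dsk they were called in all 6 leave-out fits.

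The insulin-like peptide gene Ilp2, made by the insulin-producing cells, was at 92.8, 192 and 102 CPM in shRNA brains, against 29.8, 24.7 and 46.95 CPM in control brains. shRNA library 2 stood above the rest, yet the other 2 shRNA libraries also exceeded every control library (1.93 ± 0.36, adjusted p = 0.0147). Ilp2 lost its call without control library 1 or 2 (adjusted p = 0.0607 and 0.0674). Of the other insulin-like peptides, Ilp5 (1.74) and Ilp3 (-0.54) had no call and opposite signs. The precursors of peptide hormones Ptth (-0.06), Eh (0.40) and FMRFa (0.12) had no call either. The higher count was 23, 19 and 25 without shRNA library 1, 2 or 3 and 18, 15 and 22 without control library 1, 2 or 3, and 21 without shRNA library 1 and control library 3. Among the 26 higher genes, shRNA library 3 was the nearest of its group to controls in 24.

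Of 38 receptors of these peptides 11 (28.9%) were higher, 1 lower and 26 not called (median 0.62). Pdfr, the receptor of the clock neuron peptide Pdf, was higher in every shRNA brain, at 3.38, 3.41 and 3.18 CPM in shRNA brains, against 0.820, 0.637 and 0.892 CPM in control brains (2.08 ± 0.28, adjusted p = 0.00732). Proc-R, the proctolin receptor gene, was at 29.5, 52.2 and 27.6 CPM in shRNA brains, against 7.93, 6.66 and 19.1 CPM in control brains (1.70 ± 0.46, adjusted p = 0.0406), and the allatostatin C receptor gene AstC-R1 was lower, at 2.61, 3.23 and 4.65 CPM in shRNA brains, against 11.3, 8.83 and 5.45 CPM in control brains (-1.29 ± 0.35, adjusted p = 0.0427). Control library 3 was the control library nearest to shRNA brains for Proc-R and AstC-R1. Pdfr held in all 6 leave-out fits. Calls that a leave-out fit lost (adjusted p in brackets) were those of Proc-R in each such fit except without control library 3 (0.0516 to 0.126), and AstC-R1 in each such fit except without shRNA library 3 or control library 3 (0.101 to 0.133). The higher count was 5, 3 and 12 without shRNA library 1, 2 or 3 and 3, 3 and 5 without control library 1, 2 or 3 and 4 without shRNA library 1 and control library 3.

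In the list of transmitter synthesis and transport 8 of 23 genes (34.8%) were higher, 0 lower and 15 not called (median 0.58). Gad1, the glutamate decarboxylase that makes GABA, was at 264, 229 and 211 CPM in shRNA brains, against 65.6, 92.3 and 141 CPM in control brains. Gat, the GABA transporter of astrocyte-like glia, was at 247, 218 and 189 CPM in shRNA brains, against 69.1, 80.2 and 127 CPM in control brains, and SerT, the serotonin transporter, at 28.4, 23.4 and 18.04 CPM in shRNA brains, against 7.11, 8.64 and 9.88 CPM in control brains. Each was higher in every shRNA brain, and control library 3 was the highest control in each. The log2 fold changes were 1.23 ± 0.27 (adjusted p = 0.0222), 1.24 ± 0.24 (adjusted p = 0.0159) and 1.45 ± 0.21 (adjusted p = 0.00826). Tdc2, for tyramine synthesis in octopamine neurons, rose by 1.15 ± 0.29. SerT held in all 6 leave-out fits. Among named genes, a call was lost (adjusted p in brackets) for Gad1 without shRNA library 1 or 2 or control library 2 (0.0577 to 0.0957), Gat without shRNA library 2 or control library 2, and Tdc2 in each such fit except without shRNA library 3 (0.0545 to 0.105). For the list the higher count was 4, 2 and 10 without shRNA library 1, 2 or 3 and 6, 1 and 10 without control library 1, 2 or 3, and 9 without shRNA library 1 and control library 3.

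**Figure D5:**
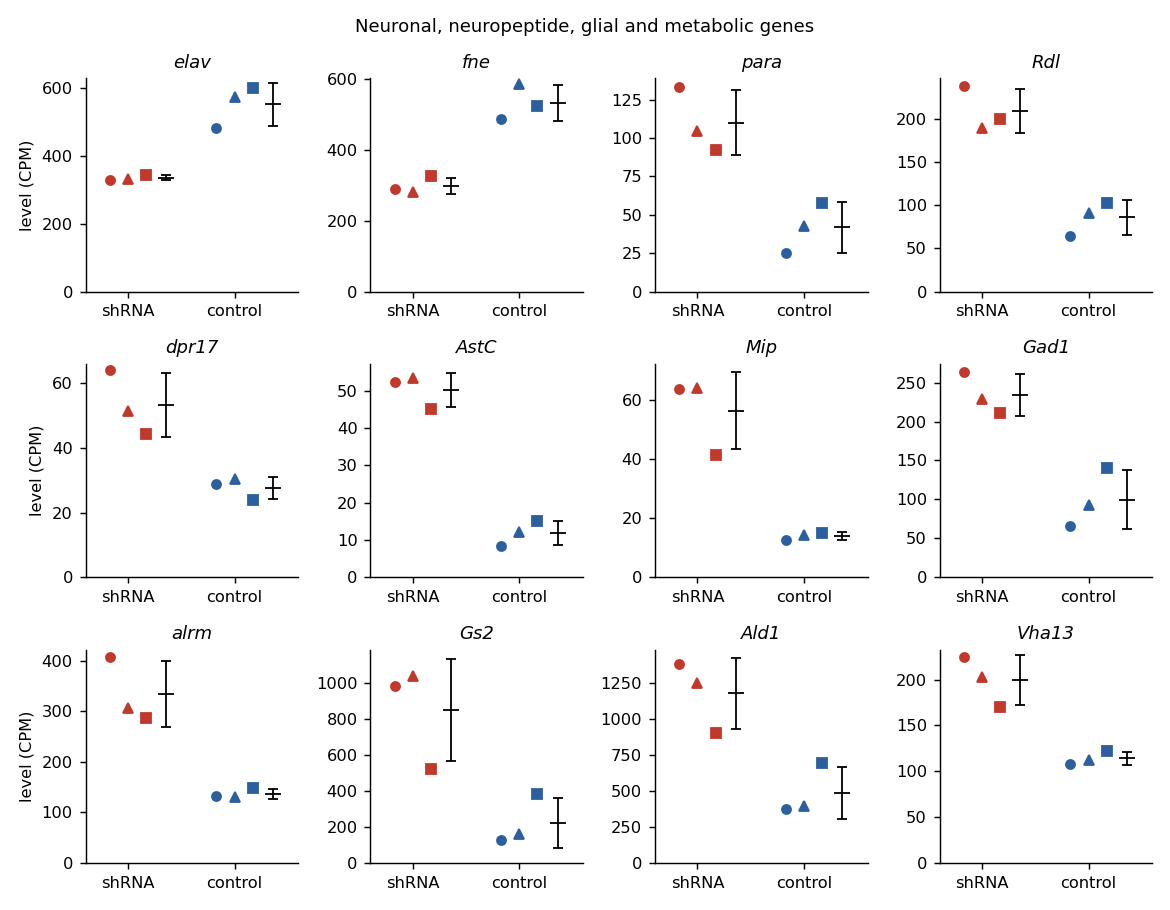
Level in CPM of 12 neuronal, neuropeptide, glial and metabolic genes in each library, shRNA left of control, with a circle, triangle and square for libraries 1, 2 and 3 and bars for mean ± SD. elav and fne are lower in all shRNA libraries and the other 10 genes higher, with Gs2 and Ald1 in control library 3 nearest to shRNA library 3.

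Guidance and recognition molecules split by family. Of 36 axon guidance genes 17 (47.2%) were lower, 0 higher and 19 not called (median -0.30). The cell surface genes Dscam4 and Dscam2, of the Dscam family of self-recognition molecules, were at 187, 149 and 149 CPM in shRNA brains, against 289.9, 339 and 304 CPM in control brains for Dscam4, and at 168, 114 and 124 CPM in shRNA brains, against 274, 342 and 254 CPM in control brains for Dscam2. The leucine-rich repeat gene trn was at 130.2, 119 and 147 CPM in shRNA brains, against 228, 217 and 264 CPM in control brains. The shRNA libraries were lower throughout, with log2 fold changes of -0.95 ± 0.12 (adjusted p = 0.00645), -1.10 ± 0.18 (adjusted p = 0.0112) and -0.84 ± 0.11 (adjusted p = 0.00742). fra, the netrin receptor frazzled (-0.67 ± 0.09, adjusted p = 0.00705), and Sema1a, a transmembrane semaphorin (-0.64 ± 0.08, adjusted p = 0.00608), fell less. Dscam1 (0.11), NetA (-0.01) and NetB (-0.05) had no call. Members called lower numbered 11, 6 and 18 without shRNA library 1, 2 or 3 and 8, 4 and 12 without control library 1, 2 or 3, and 9 without shRNA library 1 and control library 3. Dscam2 lost its call without control library 2 (adjusted p = 0.0524).

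The dpr and DIP genes encode paired immunoglobulin proteins that mark synaptic partners, and here 17 of 30 (56.7%) were higher, 1 lower and 12 not called (median 0.60). dpr5 was at 27.6, 19.9 and 20.5 CPM in shRNA brains, against 9.19, 10.4 and 11.1 CPM in control brains, and dpr17 at 63.9, 51.3 and 44.4 CPM in shRNA brains, against 28.7, 30.4 and 23.8 CPM in control brains. Both were higher in each shRNA brain (1.15 ± 0.17 and 0.94 ± 0.16, adjusted p = 0.00821 and 0.0119). DIP-eta was the member called lower, at 11.4, 9.25 and 9.06 CPM in shRNA brains, against 20.8, 29.1 and 19.7 CPM in control brains (-1.23 ± 0.19, adjusted p = 0.00997). All 3 were called in each of the 6 leave-out fits. The higher count was 12, 11 and 16 without shRNA library 1, 2 or 3 and 10, 10 and 12 without control library 1, 2 or 3, and 10 without shRNA library 1 and control library 3.

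Most genes of the glial list were higher in shRNA brains. Of 28 members 17 (60.7%) were higher, 1 lower and 10 not called, with a median of 0.55. alrm (FBgn0039332, chromosome 3R, 25381065 to 25382781), the leucine-rich repeat gene that marks astrocyte-like glia, was at 408, 306 and 286 CPM in shRNA brains, against 132, 131 and 149 CPM in control brains. The Ly6 family gene bero was at 61.6, 51.4 and 40.7 CPM in shRNA brains, against 17.4, 18.9 and 27.3 CPM in control brains. Gs2, glutamine synthetase, which recycles glutamate in glia, was at 985, 1041 and 522 CPM in shRNA brains, against 125, 162 and 382 CPM in control brains. The 3 genes were higher in every shRNA brain, and for Gs2 control library 3 approached shRNA library 3. The log2 fold changes were 1.28 ± 0.15 (adjusted p = 0.00606), 1.27 ± 0.22 (adjusted p = 0.0124) and 1.93 ± 0.47 (adjusted p = 0.0309). In leave-out fits no call was made (adjusted p in brackets) for Gs2 in each such fit except without shRNA library 3 or control library 3 (0.0742 to 0.119), and bero without control library 2 (0.0648).

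The uncharacterised glial list members CG9338 and CG6126 rose by 2.01 ± 0.20 and 1.57 ± 0.20 and held in all 6 leave-out fits. vkg, a collagen IV chain of the sheath around the brain that hemocytes and fat body also make, was at 280.1, 411 and 226 CPM in shRNA brains, against 86.1, 55.1 and 103.8 CPM in control brains (1.90 ± 0.30, adjusted p = 0.0104). The hemocyte markers summed to 281, 448 and 368 CPM in shRNA brains and 207.5, 121 and 181 CPM in control brains, and like vkg they were highest in shRNA library 2 and lowest in control library 2; their part in that result was not tested. The member called lower was Nrx-IV, of septate junctions (-0.37 ± 0.10, adjusted p = 0.0452), named after its value was seen. Nrx-IV lost its call in each leave-out fit except without shRNA library 3 (adjusted p = 0.0934 to 0.167). Members without a call include the glutamate transporter gene Eaat1 (0.10), wrapper of cortex glia (0.15) and the engulfment receptor gene drpr (0.04). Glial members called higher numbered 10, 7 and 17 without shRNA library 1, 2 or 3 and 9, 5 and 12 without control library 1, 2 or 3, and 10 without shRNA library 1 and control library 3.

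Known partners of Ataxin-2 and other RNA granule genes were lower where they changed. Of 27 members 12 (44.4%) were lower, 0 higher and 15 not called (median -0.29). brat, a translational repressor that acts in neuroblast daughters, was at 522, 554 and 631 CPM in shRNA brains, against 1067, 1085 and 1094 CPM in control brains. Rox8, the fly relative of the stress granule protein TIA-1, was at 274, 293 and 297 CPM in shRNA brains, against 413, 417 and 414 CPM in control brains, and Fmr1, the fragile X protein gene, at 223, 248 and 273 CPM in shRNA brains, against 370.0, 381 and 394 CPM in control brains. All shRNA libraries were lower than all control libraries in the 3 genes (-0.93 ± 0.09, -0.53 ± 0.07 and -0.62 ± 0.09, adjusted p = 0.00378, 0.00664 and 0.00870). Pop2, of the CCR4-NOT deadenylase (-0.56 ± 0.09), tral, a partner of the Me31B helicase (-0.50 ± 0.08), and rin, the fly G3BP (-0.51 ± 0.11), fell too. The direct binding partners pAbp (-0.26), tyf (-0.16) and Lsm12a (-0.14) had no call. The lower count was 9, 5 and 15 without shRNA library 1, 2 or 3 and 8, 2 and 7 without control library 1, 2 or 3, and 6 without shRNA library 1 and control library 3. Of the named calls, those lost in leave-out fits (adjusted p in brackets) were Fmr1 without control library 2 (0.0558), Pop2 without control library 2 (0.0574), tral without control library 2 (0.0628), and rin in each such fit except without shRNA library 1 or shRNA library 3 (0.0559 to 0.0861).

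Of 15 small RNA pathway genes 5 (33.3%) were lower, 2 higher and 8 not called (median -0.07). The piRNA gene AGO3 was at 5.60, 7.12 and 6.82 CPM in shRNA brains, against 1.85, 1.94 and 2.21 CPM in control brains (1.70 ± 0.23, adjusted p = 0.00747), and loqs, the partner of Dicer proteins, at 85.9, 82.1 and 77.3 CPM in shRNA brains, against 139, 134 and 116 CPM in control brains (-0.67 ± 0.09, adjusted p = 0.00759). Neither gene had overlapping groups, and both held in all 6 leave-out fits. AGO2 (-0.24) and Dcr-2 (-0.13), of the small interfering RNA pathway, had no call. Lower beside loqs were AGO1 (-0.36), r2d2 (-0.33), pasha (-0.41) and, named after its value was seen, drosha (-0.30), all of microRNA or small interfering RNA pathways. With 1 library left out, the call was lost (adjusted p in brackets) for AGO1 in each such fit except without shRNA library 3 or control library 1 (0.0724 to 0.149), r2d2 in each such fit except without shRNA library 3 (0.0699 to 0.127), pasha without shRNA library 2 or control library 2 (0.0556 and 0.0703), and drosha in each such fit except without shRNA library 3 (0.0659 to 0.102). Members called lower numbered 2, 1 and 6 without shRNA library 1, 2 or 3 and 3, 1 and 2 without control library 1, 2 or 3, and 1 without shRNA library 1 and control library 3.

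The title of the series names the cytoskeleton. Of 43 actin cytoskeleton genes 15 (34.9%) were lower, 2 higher and 26 not called (median -0.21). sn, the fascin that bundles filaments, was at 211, 297 and 324 CPM in shRNA brains, against 651, 586 and 446 CPM in control brains (-1.02 ± 0.20, adjusted p = 0.0173). chic, the actin-binding profilin, was at 1119, 1347 and 1386 CPM in shRNA brains, against 2054, 2101 and 1855 CPM in control brains (-0.64 ± 0.10, adjusted p = 0.0106), and ena, which promotes filament growth, at 195, 218 and 236 CPM in shRNA brains, against 324, 314 and 299.9 CPM in control brains (-0.53 ± 0.09, adjusted p = 0.0119). These 3 were lower in every shRNA brain, whereas the severing protein gelsolin, Gel, was higher, at 377, 280.3 and 218 CPM in shRNA brains, against 143, 133 and 157 CPM in control brains (1.02 ± 0.20, adjusted p = 0.0162). Act5C, an actin of all cells, was at 4657, 5801 and 5884 CPM in shRNA brains, against 7867, 7524 and 6624 CPM in control brains (-0.43 ± 0.12, adjusted p = 0.0407). Among actin genes the lower count was 8, 2 and 12 without shRNA library 1, 2 or 3 and 4, 0 and 8 without control library 1, 2 or 3, and 7 without shRNA library 1 and control library 3, so that no member was called lower once control library 2 was left out. In leave-out fits the adjusted p, in brackets, was above the threshold for sn without shRNA library 2 or control library 1 or 2 (0.0583 to 0.0765), chic without control library 2 (0.0596), ena without shRNA library 2 or control library 2 (0.0511 and 0.0662), Gel without shRNA library 2 or control library 1 or 2 (0.0543 to 0.0751), and Act5C in each such fit except without shRNA library 3 or control library 3 (0.0833 to 0.136).

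Of 14 tubulins and tubulin cofactors 1 was called, and it was lower (7.14%, below the 11.5% of all genes tested). It was alphaTub84B, the major alpha-tubulin, at 3354, 4360 and 3748 CPM in shRNA brains, against 5198, 4900 and 4715 CPM in control brains (-0.37 ± 0.11, adjusted p = 0.0493). Near-identical alpha-tubulin copies may share its reads. The tubulin median was -0.01 and changed sign with upper quartile scaling (0.02) and with library totals alone (0.00). Of 21 microtubule-associated proteins 5 (23.8%) were lower, 1 higher and 15 not called, and the lower count was 4, 3 and 5 without shRNA library 1, 2 or 3 and 3, 1 and 3 without control library 1, 2 or 3, and 3 without shRNA library 1 and control library 3. Jupiter, which binds and stabilises microtubules, was at 348, 405 and 453 CPM in shRNA brains, against 860.4, 959 and 731 CPM in control brains (-1.08 ± 0.14, adjusted p = 0.00664). CLIP-190, a plus-end binding protein, was at 193, 175 and 159.9 CPM in shRNA brains, against 98.1, 105 and 124 CPM in control brains (0.69 ± 0.12, adjusted p = 0.0121). The groups were apart for both, in opposite directions, and Jupiter held in all 6 leave-out fits. Of 26 kinesins and adaptors 2 (7.69%) were lower, the conventional kinesin chains Khc (-0.27) and Klc (-0.27), 1 (3.85%) higher and 23 not called. Both shares were below the 11.5% of all genes tested. The higher one, Kif3C, was at 16.6, 8.92 and 10.3 CPM in shRNA brains, against 4.85, 5.32 and 4.56 CPM in control brains (1.28 ± 0.27, adjusted p = 0.0199). Calls that a leave-out fit lost (adjusted p in brackets) were those of CLIP-190 without control library 2 (0.0641), alphaTub84B in each such fit except without shRNA library 2 (0.0747 to 0.151), Khc in each such fit (0.0569 to 0.159), Klc in each such fit except without control library 3 (0.0669 to 0.154), and Kif3C without control library 1, 2 or 3 (0.0579 to 0.0740). futsch (0.49), tau (0.11) and stai (-0.38) had no call.

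Most genes of glycolysis were higher. Of 23 genes of glycolysis and lactate metabolism 15 (65.2%) were higher, 2 lower and 6 not called (median 0.74). Tpi, triosephosphate isomerase, was at 421, 419 and 289.8 CPM in shRNA brains, against 172, 152 and 209 CPM in control brains. The aldolase gene Ald1 was at 1382, 1249 and 902 CPM in shRNA brains, against 376, 393 and 696 CPM in control brains. Ldh, lactate dehydrogenase, was at 401, 377 and 119.5 CPM in shRNA brains, against 26.9, 30.4 and 98.2 CPM in control brains. The shRNA libraries were higher in each, but shRNA library 3 and control library 3 came closest to the other group in all 3 genes. The log2 fold changes were 1.09 ± 0.18 (adjusted p = 0.0119), 1.27 ± 0.28 (adjusted p = 0.0224) and 2.53 ± 0.66 (adjusted p = 0.0380). The glycogen phosphorylase gene Glyp (1.29 ± 0.28), the mutase gene Pglym78 (1.27 ± 0.26) and Gapdh1 (1.22 ± 0.24) were also called. The lower members, sima and tgo, encode the hypoxia factor and its partner (-0.66 ± 0.08 and -0.64 ± 0.09) and were named after their values were seen. Of the muscle markers Mhc, at 70.4, 306 and 37.7 CPM in shRNA brains, against 6.84, 6.85 and 63.7 CPM in control brains, was likewise lowest in library 3 among shRNA brains and highest in library 3 among control brains; the part of muscle in these results was not tested. Among named genes, a call was lost (adjusted p in brackets) for Tpi without control library 2 (0.0592), Ald1 in each such fit except without shRNA library 3 or control library 3 (0.0591 to 0.0928), Ldh in each such fit except without shRNA library 3 or control library 3 (0.0880 to 0.133), Glyp in each such fit except without shRNA library 3 or control library 3 (0.0565 to 0.0943), Pglym78 without shRNA library 2 or control library 1 or 2 (0.0665 to 0.0819), and Gapdh1 without shRNA library 2 or control library 1 or 2 (0.0609 to 0.0703). The higher count was 10, 5 and 18 without shRNA library 1, 2 or 3 and 6, 2 and 15 without control library 1, 2 or 3, and 14 without shRNA library 1 and control library 3.

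Genes of the respiratory complexes and of the vacuolar proton ATPase were higher where they were called. Of 69 genes of the respiratory complexes and ATP synthase 33 (47.8%) were higher, 0 lower and 36 not called, with a median of 0.40 and 67 log2 fold changes above 0. ox, a small subunit of complex III, was at 42.1, 60.7 and 49.2 CPM in shRNA brains, against 23.3, 22.9 and 27.1 CPM in control brains (1.05 ± 0.15, adjusted p = 0.00811), and ND-B12, of complex I, at 66.5, 80.5 and 62.9 CPM in shRNA brains, against 44.8, 41.01 and 43.8 CPM in control brains (0.70 ± 0.11, adjusted p = 0.00943). Neither gene had overlapping groups. Of 17 genes of the vacuolar proton ATPase, which acidifies synaptic vesicles and lysosomes, 14 (82.4%) were higher, 0 lower and 3 not called (median 0.51). Vha13, a stalk subunit, was at 225, 203 and 170.4 CPM in shRNA brains, against 108, 112 and 122 CPM in control brains (0.81 ± 0.12, adjusted p = 0.00848), again with no overlap. The higher count was 18, 7 and 43 without shRNA library 1, 2 or 3 and 6, 2 and 15 without control library 1, 2 or 3 for the respiratory list, and 9, 4 and 15 without shRNA library 1, 2 or 3 and 4, 2 and 9 without control library 1, 2 or 3 for the proton ATPase. Without shRNA library 1 and control library 3 together these counts were 13 and 8.

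Of 71 mitochondrial ribosomal protein genes 13 (18.3%) were higher and 0 lower, led by mRpS6, at 21.1, 22.4 and 20.1 CPM in shRNA brains, against 11.04, 10.3 and 12.6 CPM in control brains (0.91 ± 0.12, adjusted p = 0.00732). Of 79 cytoplasmic ribosomal protein genes 17 (21.5%) were higher, 0 lower and 62 not called, and 78 log2 fold changes were above 0 with a median of 0.25. The translation elongation factor gene eEF1alpha1 rose by 0.34 ± 0.07. The higher count of cytoplasmic ribosomal protein genes was 3, 1 and 24 without shRNA library 1, 2 or 3 and 28, 0 and 4 without control library 1, 2 or 3, and 1 without shRNA library 1 and control library 3, and that of mitochondrial ones was 9, 1 and 11 without shRNA library 1, 2 or 3 and 2, 1 and 9 without control library 1, 2 or 3, and 7 without shRNA library 1 and control library 3. Of 31 proteasome genes 4 (12.9%, near the 11.5% of all genes) were lower and 0 higher (median -0.15), and the lower count was 1, 0 and 5 without shRNA library 1, 2 or 3 and 0, 0 and 0 without control library 1, 2 or 3, and 0 without shRNA library 1 and control library 3. eEF1alpha1 lost its call without shRNA library 1 or 2 or control library 2 (adjusted p = 0.0587 to 0.130).

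In the list of heat shock and folding genes 6 of 22 (27.3%) were lower, 1 higher and 15 not called (median -0.42). The small heat shock protein gene Hsp27 was at 453, 883 and 815 CPM in shRNA brains, against 2068, 1884 and 1417 CPM in control brains. Hsp23 was at 998, 1833 and 1665 CPM in shRNA brains, against 3406, 3238 and 2156 CPM in control brains. Both small heat shock genes, which are inducible by ecdysone as well as by heat, were lower in every shRNA brain (-1.32 ± 0.27 and -0.97 ± 0.27, adjusted p = 0.0186 and 0.0426). In leave-out fits no call was made (adjusted p in brackets) for Hsp27 without control library 1 or 2 (0.0649 and 0.0775), and Hsp23 in each such fit except without control library 3 (0.0667 to 0.139). The higher member was Hsp70Ba, at 3.80, 5.03 and 0.909 CPM in shRNA brains, against 0.0684, 0 and 0.0330 CPM in control brains (adjusted p = 0.00990), with a call in all 6 leave-out fits. Its fold is not given, since control brains held almost no reads of it, and reads of its near-identical copies cannot be assigned with certainty. Members called lower numbered 1, 4 and 3 without shRNA library 1, 2 or 3 and 0, 0 and 6 without control library 1, 2 or 3, and 4 without shRNA library 1 and control library 3. In the list of oxidative and toxic stress 6 of 27 (22.2%) were higher and 1 (3.70%) lower, against 11.5% of all genes tested in each direction. Among the higher ones were the glutathione transferase gene GstD5, at 2.11, 1.25 and 1.64 CPM in shRNA brains, against 0.273, 0.287 and 0.231 CPM in control brains (2.64 ± 0.35, adjusted p = 0.00732), and the mitochondrial P450 gene Cyp12a4, at 50.5, 26.7 and 19.97 CPM in shRNA brains, against 5.71, 3.44 and 7.14 CPM in control brains (2.58 ± 0.42, adjusted p = 0.0112). Both were higher in all shRNA brains. The member called lower was the P450 gene Cyp4p1 (-1.02 ± 0.14, adjusted p = 0.00727), named after its value was seen. The superoxide dismutase gene Sod1 (0.26) and the stress response factor gene cnc (0.04) had no call. The higher count here was 6, 4 and 9 without shRNA library 1, 2 or 3 and 3, 1 and 5 without control library 1, 2 or 3, and 4 without shRNA library 1 and control library 3. Cyp12a4 lost its call without control library 2 (adjusted p = 0.0524).

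Of 29 genes of apoptosis, JNK signalling and damage 7 (24.1%) were lower, 1 higher and 21 not called. Traf4, an adaptor of the JNK pathway, was at 42.6, 37.7 and 47.2 CPM in shRNA brains, against 113, 111 and 103 CPM in control brains (-1.36 ± 0.10, adjusted p = 0.00218), with no overlap and a call in all 6 leave-out fits. The caspase inhibitor gene Diap1 (-0.68 ± 0.12) and the initiator caspase gene Dronc (-0.54 ± 0.14) were both lower, and the death activator genes rpr (0.30) and hid (-0.13) and the JNK target puc (-0.15) had no call. The higher member was Gadd45, a DNA damage response gene (1.10 ± 0.23, adjusted p = 0.0202). For this list the lower count was 5, 2 and 6 without shRNA library 1, 2 or 3 and 3, 1 and 5 without control library 1, 2 or 3, and 3 without shRNA library 1 and control library 3. Of the named calls, those lost in leave-out fits (adjusted p in brackets) were Diap1 without shRNA library 2 or control library 2 (0.0543 and 0.0651), Dronc in each such fit except without control library 3 (0.0611 to 0.0928), and Gadd45 without shRNA library 1 or 2 or control library 2 (0.0543 to 0.0652). In innate immunity 9 of 27 genes (33.3%) were higher, 1 (3.70%) lower and 17 not called, against 11.5% of all genes tested in each direction. Dif, an NF-kappaB factor of the Toll pathway, was at 69.2, 58.04 and 51.9 CPM in shRNA brains, against 22.8, 24.8 and 28.3 CPM in control brains (1.24 ± 0.14, adjusted p = 0.00544), with no overlap. Antimicrobial peptide genes were uneven. CecC was at 21.5, 1.14 and 0.385 CPM in shRNA brains, against 0.0342, 0 and 0.0991 CPM in control brains. AttA was at 9.55, 28.1 and 0.804 CPM in shRNA brains, against 0.273, 1.05 and 0.297 CPM in control brains. CecC was highest in shRNA library 1 and AttA in shRNA library 2, and shRNA library 3 was nearest to control brains in both. AttA and its near-identical copy AttB were called although the groups overlapped. The lower member was Tl, the Toll receptor (-0.56 ± 0.09, adjusted p = 0.0106), named after its value was seen. With 1 library left out, the call was lost (adjusted p in brackets) for AttA in each such fit except without shRNA library 3, AttB in each such fit except without shRNA library 3 (0.0930 to 0.150), and Tl without control library 2 (0.0505). The count of higher immunity genes was 4, 4 and 21 without shRNA library 1, 2 or 3 and 2, 2 and 4 without control library 1, 2 or 3, and 3 without shRNA library 1 and control library 3. Fat body, a main source of these peptides, had marker sums of 3213, 1403 and 94.8 CPM in shRNA brains, against 505, 27.4 and 303 CPM in control brains, and its part in these results was not tested.

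Of 16 circadian clock genes 3 (18.8%) were higher (tim, Pdp1 and Pdfr) and 5 (31.2%) lower (vri, dco, lark and both CkII genes, of which lark and CkIIbeta were named after their values were seen). The lower count was 2, 0 and 4 without shRNA library 1, 2 or 3 and 1, 0 and 2 without control library 1, 2 or 3, and 2 without shRNA library 1 and control library 3. tim, the partner of the Period protein, was at 10.4, 8.37 and 7.48 CPM in shRNA brains, against 3.21, 2.96 and 3.37 CPM in control brains (1.46 ± 0.21, adjusted p = 0.00870), while per had no call, at 9.47, 8.48 and 9.20 CPM in shRNA brains, against 11.5, 10.04 and 8.56 CPM in control brains (-0.15 ± 0.17, adjusted p = 0.560). tim was higher in all shRNA brains and held in all 6 leave-out fits. Of 26 insulin and TOR signalling genes 3 (11.5%) were higher (REPTOR, sNPF and Ilp2) and 1 (3.85%) lower (Akt). The higher share was that of all genes tested (11.5%), and the lower share was below it. REPTOR, a factor that acts when TOR is inhibited, was at 109, 92.3 and 109 CPM in shRNA brains, against 49.1, 56.7 and 59.6 CPM in control brains (0.90 ± 0.11, adjusted p = 0.00606), and InR (-0.14) and foxo (0.17) had no call. fru, which directs courtship circuits in its male-specific form, was at 222, 214 and 183 CPM in shRNA brains, against 73.7, 70.8 and 126 CPM in control brains (1.20 ± 0.23, adjusted p = 0.0169). Sxl, the switch gene of female fate, was lower, at 264, 292 and 337 CPM in shRNA brains, against 475, 464 and 400.1 CPM in control brains (-0.58 ± 0.12, adjusted p = 0.0176). In leave-out fits the adjusted p, in brackets, was above the threshold for fru without shRNA library 2 or control library 1 or 2 (0.0607 to 0.0703), Sxl without shRNA library 2 or control library 1 or 2 (0.0634 to 0.0855), Pdp1 without control library 2 (0.0631), vri in each such fit except without control library 3 (0.0600 to 0.133), dco without shRNA library 2 or control library 2 or 3 (0.0531 to 0.0914), lark without shRNA library 2 or control library 1 or 2 (0.0508 to 0.0805), CkIIalpha in each such fit except without shRNA library 3 (0.0604 to 0.131), CkIIbeta in each such fit except without shRNA library 3 (0.0657 to 0.170), sNPF without shRNA library 2 or control library 2 (0.0563 and 0.0652), and Akt in each such fit except without shRNA library 3 (0.0865 to 0.135). The dosage compensation RNA genes roX1 (0.39) and roX2 (0.04), made in males, had no call and overlapping groups. Among colour genes used as transgene markers, w was higher, at 14.8, 18.6 and 18.4 CPM in shRNA brains, against 11.4, 9.62 and 6.21 CPM in control brains (0.93 ± 0.24, adjusted p = 0.0371), with no leave-out fit that kept the call.

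Of the lists of neighbouring tissues, hemocytes and fat body had the highest shares called higher. Of 30 muscle genes 4 (13.3%, near the 11.5% of all genes) were higher and 1 lower, with a median of 1.53, and without shRNA library 1 and control library 3 the count was 16 higher and 0 lower. With each library left out in turn the higher count was 4, 3 and 4 without shRNA library 1, 2 or 3 and 1, 1 and 14 without control library 1, 2 or 3. The sarcomere genes Mhc (2.42), up (2.07) and Act57B (1.97) had no call with all 6 libraries. Mef2, the myogenic factor that neurons also make, was at 84.7, 80.4 and 77.95 CPM in shRNA brains, against 47.6, 48.5 and 55.7 CPM in control brains (0.68 ± 0.08, adjusted p = 0.00608). It was higher in every shRNA brain. The other muscle members called were fln, CG5080 and Msp300, higher, and kel, lower. Of 17 hemocyte genes 6 (35.3%) were higher, 0 lower and 11 not called. Hml, the clotting protein hemolectin, was at 146, 244 and 133 CPM in shRNA brains, against 64.02, 23.9 and 71.97 CPM in control brains (1.71 ± 0.44, adjusted p = 0.0353), and Col4a1, the second collagen IV chain, at 401, 561 and 349.9 CPM in shRNA brains, against 133, 83.9 and 157 CPM in control brains (1.81 ± 0.27, adjusted p = 0.00915). Both were higher in all shRNA brains, whereas the plasmatocyte receptor genes NimC1 (-0.58) and eater (0.08) had no call. The higher hemocyte count was 4, 3 and 6 without shRNA library 1, 2 or 3 and 4, 2 and 5 without control library 1, 2 or 3, and 7 without shRNA library 1 and control library 3. Calls that a leave-out fit lost (adjusted p in brackets) were those of Hml in each such fit except without shRNA library 3 (0.0533 to 0.104), fln without control library 1 or 2 (0.0568 and 0.0610), CG5080 without control library 1 or 2 (0.0584 and 0.0700), Msp300 in each such fit except without control library 3 (0.0542 to 0.119), and kel in each such fit except without shRNA library 3 or control library 3 (0.0543 to 0.105). Of 15 fat body genes 3 (20.0%) were higher (Tsf1, apolpp and Desat1) and 0 lower, and the storage protein gene Lsp1beta had no call at 2706, 759 and 25.9 CPM in shRNA brains, against 99.8, 8.22 and 96.4 CPM in control brains. Of 11 gut enzyme genes 1 was higher (Lip1) and 1 lower (iotaTry), 9.09% each and near the 11.5% of all genes. Of 9 salivary gland genes none was called. Eye disc (1 higher, rdgB, and 1 lower, ninaC, of 23), ring gland (0 higher and 2 lower, mld and Kr-h1, of 11) and cuticle (0 higher and 1 lower, Cht5, of 24) lists had fewer calls than the 23.0% of all genes. The lower share of the ring gland list alone was 18.2%, above the 11.5% of all genes called lower. Its lower count was 0 to 3 with 1 library left out. Among named genes, a call was lost (adjusted p in brackets) for apolpp without control library 2 (0.0578), Desat1 without shRNA library 2 or control library 1 or 2 (0.0613 to 0.0765), Lip1 in each such fit except without shRNA library 3 (0.0543 to 0.0757), iotaTry in each such fit except without control library 3 (0.0502 to 0.0907), rdgB in each such fit except without shRNA library 3 or control library 3 (0.0905 to 0.122), ninaC in each such fit except without shRNA library 1 or control library 3 (0.0537 to 0.0799), mld without shRNA library 2 or control library 2 (0.0607 and 0.0780), Kr-h1 in each such fit except without shRNA library 3 or control library 3 (0.0558 to 0.104), and Cht5 without control library 2 (0.0524).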

How the data were processed

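Poly(A) RNA of 3 shRNA and 3 control brain samples went into TruSeq mRNA libraries, as the labels' protocols state. The authors deposited raw read counts per gene, unnormalized whole numbers, for 17737 FlyBase identifiers in each file. The submitters' processing notes name cutadapt 1.13, STAR, HTSeq 0.6.1p1 and DESeq2 and the build BDGP6, with no role or order, while strand setting, annotation release and read filters are not given in the sources that were used. If counting ignored strand, reads of overlapping genes on opposite strands were not separated.

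Symbols and positions were looked up in the Ensembl annotation of BDGP6.54, where 17599 identifiers were found. The 138 others held 0.995 to 1.16% of each library's counts and keep their identifier. Genes were kept by filterByExpr of edgeR with a minimum count of 10, libraries were scaled by TMM, and groups were compared by edgeR 4.0.16, with its quasi-likelihood F test (limma 3.58.1, R 4.3.3), with only the 6 brain libraries in the fit and no covariate. All p-values in the text are from this test and are adjusted by the Benjamini-Hochberg method over all 10438 genes tested. A call is an adjusted p under 0.05. Values after ± beside a log2 fold change are standard errors derived from the test, as the size of the log2 fold change over the square root of its F statistic. CPM are counts over TMM-scaled library sizes. The code was tested on simulated data with known changes. Libraries of a group were not duplicates, as the chi-square statistic of their counts was 28.3 to 153.9 per degree of freedom.

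Gene lists and members were chosen with earlier results of these data known, so no list is independent evidence of its direction. Named genes are Atx2, the genes of largest fold change, 12 higher and 12 lower, among those that had a mean of at least 5 CPM, no overlap and a call in all 6 fits without 1 library, the genes of largest CPM difference, 6 higher and 6 lower, and up to 6 called members of each list by size of fold change. List members without a call may be named with values. Of the listed symbols, 32 were not matched to a gene and enter no count, among them Dl, esg, scro, Tor, Dcp1 and Dcp2. Some of these genes may stand among the identifiers without a symbol, which was not checked. The alternatives were other scalings, no or a stricter filter, DESeq2 1.42.0, the replicate number as a block, all 12 libraries in 1 fit, each library left out, shRNA library 1 and control library 3 left out together, and genes of other tissues removed.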

Additional observations from a re-analysis of the deposited data

How the results depend on the processing

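With all libraries kept and no block, the count of calls stayed within 1.5 times the 2397 reported under each of the alternatives run. It went from 1908 with no filter on low counts to 3328 with DESeq2. None of the 242 called genes taken by the naming rules changed direction under any alternative. Genes named without a call, or after their values were seen, were not part of this count of directions. Upper quartile scaling moved the split to 1341 higher and 982 lower and the median log2 fold change of all genes to 0.04. Leaving out 1 library at a time gave 494 to 2364 calls, 286 to 1322 higher, 208 to 1042 lower and 247 to 863 of at least 2-fold. The same fits called 107 to 460 members over all lists, against 417, and 85 to 216 of the 242 named genes. Each of the lowest values came without control library 2 and each of the highest without shRNA library 3. Without shRNA library 1 and control library 3 together there were 1231 calls, 711 higher and 520 lower, with 261 list members called. Such fits have fewer samples. The labels number the libraries 1 to 3 in both groups but do not say what a number marks. Deviations of same-numbered libraries from their group means had correlations of 0.0567, 0.235 and -0.451 over the genes tested, and only shRNA library 2 correlated best with its own number, so the numbers were not taken to pair the samples. With a replicate block the fit called 40 genes, 14 higher and 26 lower, 37 of them changed at least 2-fold, with 11 list members and 17 named genes called. Genes outside the filter had few reads in most libraries, and a gene high in 1 or 2 libraries could also be left out: of 39 gut digestive enzyme genes matched in the table, 11 were tested.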

Other observations

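Calls were spread over the genome. Of genes tested on each large chromosome arm, 22.2 to 23.6% were called, with 323 higher and 280 lower on 3R and 152 higher and 235 lower on X. On the small chromosome 4, 7 higher and 6 lower of 89 were called (14.6%). Of 413 genes annotated as noncoding RNA, 20 were higher and 18 lower. Both are smaller shares than the 11.5% of all genes tested called in each direction. Of 5 small nuclear RNA genes 2 were lower.

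The antimicrobial peptide gene DptA was outside the filter on low counts and was at 110.2, 29.2 and 0 CPM in shRNA brains, against 0.205, 0.0637 and 0 CPM in control brains. Drs, which encodes drosomycin, was at 56.2, 20.4 and 0.979 CPM in shRNA brains, against 1.33, 1.47 and 1.39 CPM in control brains, with an adjusted p of 0.0501. In both genes shRNA libraries 1 and 2 were high and shRNA library 3 was at or below the control libraries.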
